A study of Homo sapiens with 16 samples.

Results

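The 6 mRNAs described here have been reported as cleaved by Regnase-1, do not encode chemokines, and were followed in human lung cancer cells: NFKBIZ, REL and BCL3 of the NF-kB system, PTGS2, TFRC and BCL2L1. They were taken by symbol from a set of 18227 measured genes, in which all 6 were present. RNA sequencing covered 16 libraries of 2 established cell lines from human lung adenocarcinoma, A549 and H2023. In each line, wild-type cells were set beside 1 clone labelled as a knockout of ZC3H12A, the gene that encodes Regnase-1. Cells were harvested after 3 days in normal culture or after 7 days in a culture enriched for stem cells (oncosphere culture), so culture type and time change together. The 8 groups were thus wild type and labelled knockout in A549 normal culture, A549 oncosphere culture, H2023 normal culture and H2023 oncosphere culture, with 2 libraries each. Both libraries of a labelled knockout group come from the same single clone, so the edit and anything else that sets a clone apart cannot be told apart. The labels do not say that the replicates were separate cultures, and p-values then measure only the spread between these libraries, which may be technical.

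Regnase-1 is an RNase with a zinc finger that shortens the life of inflammatory mRNAs. It is known to act on stem-loops in their 3′ untranslated regions (UTRs), hairpins whose small loop reads pyrimidine, purine, pyrimidine. Loss of the enzyme is therefore known, in immune cells above all, for making such mRNAs last longer, while NF-kB signalling sets how much of many of them is made. RNA levels, which are what was measured here, reflect both synthesis and decay.

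The 3′ UTR of 1 GENCODE transcript per gene (GRCh38) was searched for such hairpins, defined as a 3-base loop of C or T, A or G, C or T closed by at least 6 unbroken pairs, G-T pairs included. They are shown because this is the kind of element on which Regnase-1 is known to act. Capitals mark the loop, and positions count from the first base after the stop codon. NFKBIZ held 2 hairpins in a UTR of 1651 bases, with loops at 107 to 109 and at 135 to 137, and the second had a stem of 11 pairs. TFRC held 1 in 2658 bases (loop at 972 to 974), PTGS2 2 in 2562 bases (417 to 419 and 991 to 993), and BCL3 1 in 429 bases (385 to 387). In the REL UTR of 9075 bases, 3 are described here, with loops at 612 to 614, 2415 to 2417 and 3559 to 3561, and the one at 612 to 614 is shown. BCL2L1 held none in 1497 bases, which says only that no such letters stand in that UTR.
NFKBIZ, first: ttgtttcTATgaaacaa
NFKBIZ, second: tagttcactatTATatagtgggtta
TFRC: tgacagtTATactgtcg
PTGS2, first: ttaaagTACttttgg
PTGS2, second: cttgtgCACtgcagg
REL: taatggcTATgccattg
BCL3: attaagCATtttggt

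Such hairpins are common. They occurred in 42.7% of the 13685 UTRs searched, at 0.45 per kb. Among UTRs of like length, 51.0% held one for NFKBIZ, 70.3% for TFRC, 69.4% for PTGS2, 97.6% for REL, 18.6% for BCL3 and 48.6% for BCL2L1. A match is a description of the letters and not a cleavage site.

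**Figure D1:**
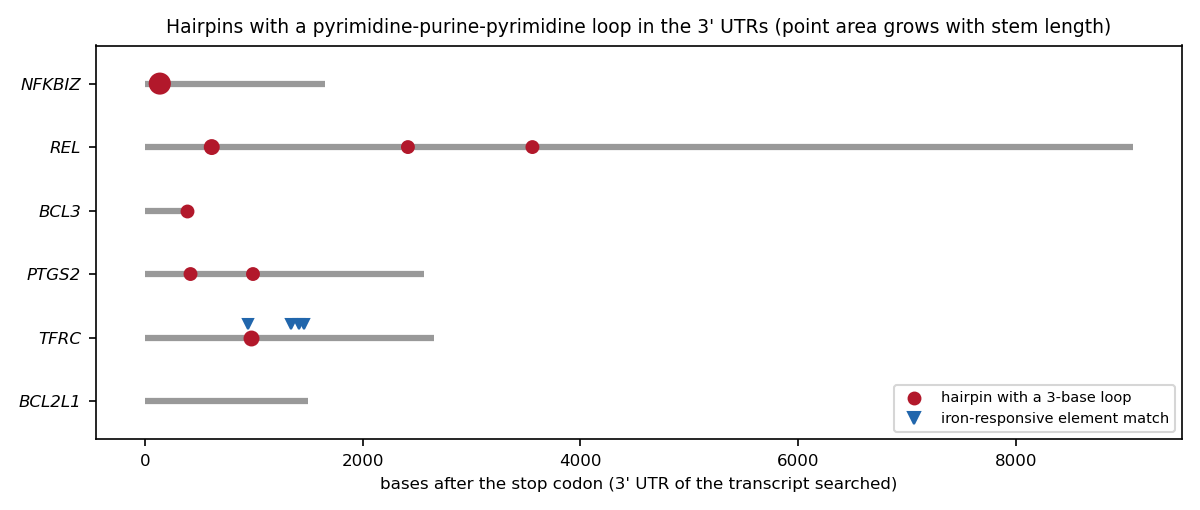
The 3′ UTR of each member is drawn as a grey line from the stop codon, with hairpins as red points whose area grows with the stem length and iron-responsive element matches as blue triangles. NFKBIZ carries both of its hairpins within the first 137 bases, REL has 3 drawn along 9075 bases, TFRC has 4 blue triangles, and BCL2L1 has neither mark.

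TFRC carries another kind of hairpin, the iron-responsive element, which iron regulatory proteins bind to stabilize the mRNA when iron is scarce. The search took the 6-base loop CAGTG followed by A, C or T, closed by 5 pairs after an unpaired C, and it found 4 matches in TFRC. Only 66 genes (0.482%) held any match and 2 genes held 3 or more. The 4 are given because they set TFRC apart from the other members in sequence. Capitals mark the loop, and the runs span bases 941 to 957, 1345 to 1361, 1410 to 1426 and 1457 to 1473 of the UTR.
TFRC element A: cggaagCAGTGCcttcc
TFRC element B: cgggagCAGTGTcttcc
TFRC element C: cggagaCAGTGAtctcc
TFRC element D: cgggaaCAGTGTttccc

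The values are TPM (length-scaled transcript levels, per library) made by the authors, which correct for gene length and sum to about the same total in every library, and which keep no record of depth, so the depth of each library is unknown. From 13824 to 14508 genes had at least 1 TPM per library, and the r between replicates, across genes, was 0.983 to 0.992. Mitochondrial genes took 10.3% to 18.7% of TPM in normal and 19.5% to 25.6% in oncosphere culture. Of 6 epithelial markers all were measured, with summed levels of 2570 to 13000 TPM, although EPCAM was low in A549, at 0.37 to 9.4 TPM. KRT19 was also low in A549 normal culture, at 0.29 to 8.33 TPM. Of 5 leukocyte markers PTPRC, CD3E and CD79A were not analysed here, and CD14 with LYZ summed to between 0.48 and 66.2 TPM. Of 5 fibroblast markers 3 were measured and summed to 1.34 to 10.1 TPM, and of 4 endothelial markers only PECAM1 was measured, at 0.0 to 2.76 TPM.

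The mRNA of ZC3H12A itself was lower in the labelled knockout in 1 of 4 comparisons. In A549 normal culture it had 30.72 and 34.88 TPM in wild type and 16.9 and 19.93 TPM in the labelled knockout. In the other 3 comparisons it was higher in the labelled knockout than in wild type without overlap. The rise was largest in H2023 oncosphere culture, with 94.61 and 69.18 TPM in the labelled knockout and 32.54 and 26.41 TPM in wild type. Of all genes, 32.7%, 26.1% and 28.6% were higher without overlap in A549 oncosphere, H2023 normal and H2023 oncosphere culture. By limma, described below, only the fall passed (adjusted p = 0.0294), and the rises did not (adjusted p = 0.187, 0.152 and 0.221 in that order). The authors' deposited tables call the fall (adjusted p = 1.44e-04) and all 3 rises (adjusted p = 0.0171, 0.008 and 3.26e-08). The edit itself was not examined and cannot be judged from the mRNA level, so the libraries are called by their label. Every direction below is that of libraries labelled knockout against wild type. Where values of both stand side by side below, those of wild type come first. The ZC3H12A 3′ UTR also held 4 such hairpins in 768 bases, where 29.3% of UTRs of like length held any.

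The members spanned a wide range of expression. Averaged over the 16 libraries, TFRC reached 168 TPM, BCL2L1 110 TPM, BCL3 87.5 TPM, PTGS2 74.4 TPM, NFKBIZ 9.91 TPM and REL 3.34 TPM. PTGS2 varied most, from 1.56 TPM in a labelled knockout library of H2023 normal culture to 320.08 TPM in a wild-type library of A549 oncosphere culture, a 205-fold range. REL varied least, by 2.53-fold between its lowest and highest library. The NFKBIZ range was 11.8-fold, and those of TFRC, BCL3 and BCL2L1 were 5.29-fold, 3.71-fold and 3.63-fold.

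**Figure D2:**
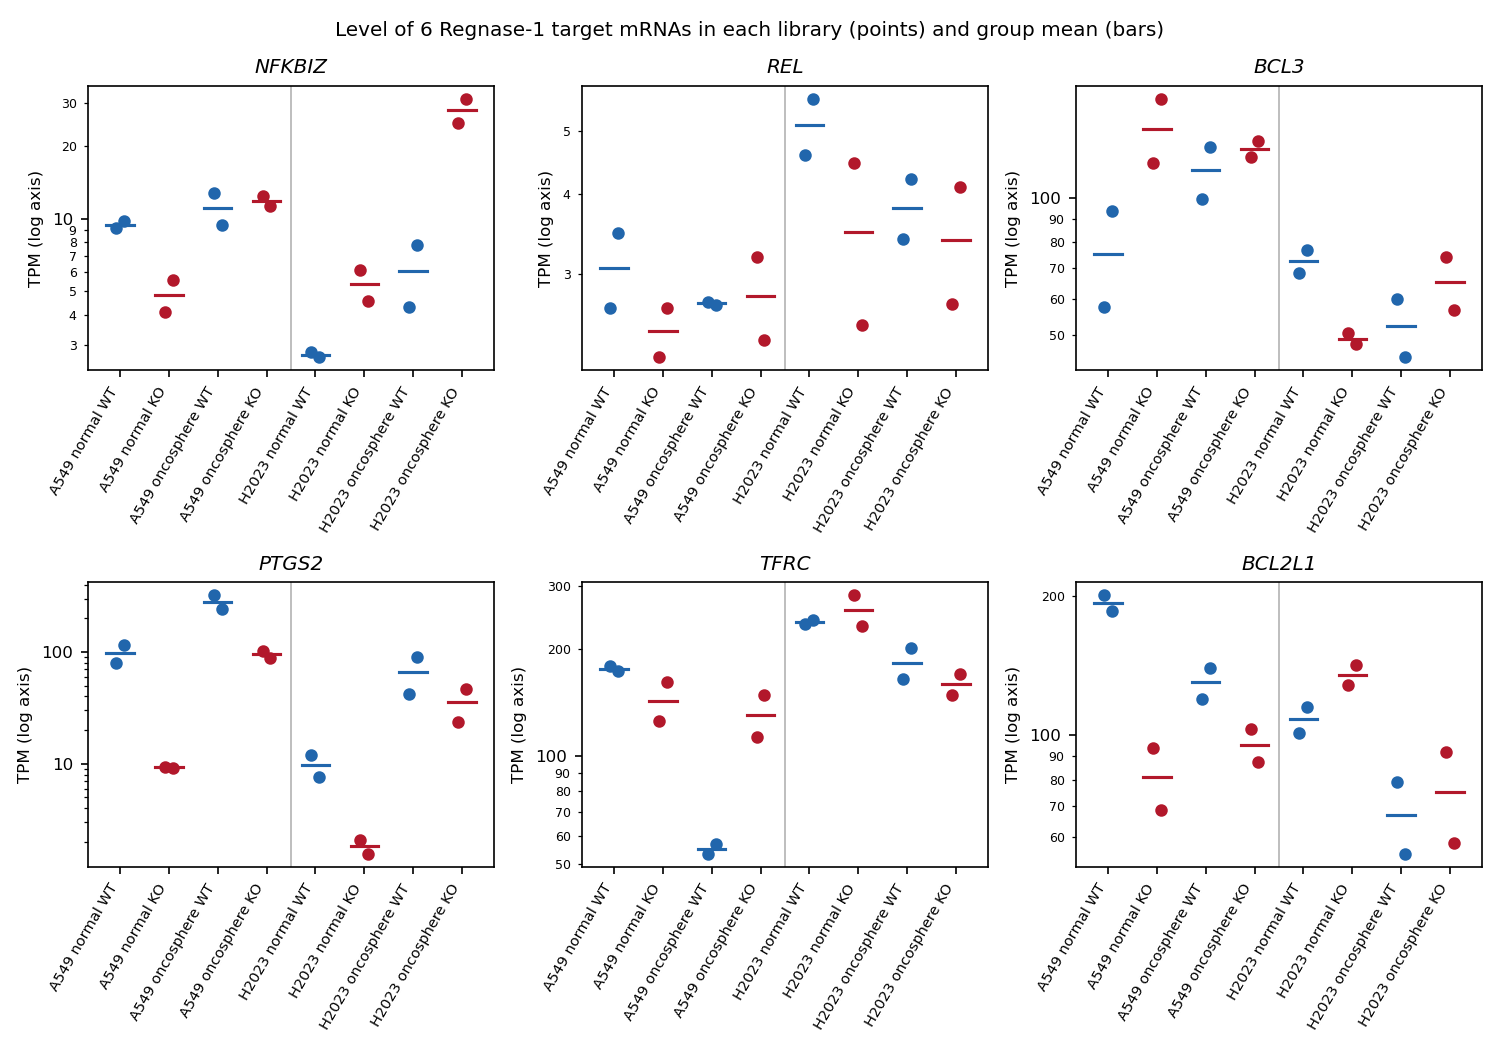
Each point is the TPM of 1 library on a log axis, blue for wild type and red for labelled knockout, and each bar is the mean of the 2 libraries of a group. PTGS2 is lower in red than in blue in 3 of the 4 pairs of groups without overlap, NFKBIZ is highest in the labelled knockout of H2023 oncosphere culture (24.78 and 31.32 TPM), and TFRC is lowest in wild type of A549 oncosphere culture (53.36 and 56.86 TPM).

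The first question was whether the members differ between labelled knockout and wild type within a line and culture. Libraries were compared with limma on log2(TPM + 1), two-sided, with Benjamini-Hochberg adjustment over all genes and a threshold of 0.05; all fold changes below are on that scale unless named otherwise, and it understates changes of low genes such as REL. In A549 normal culture 2 of 6 members passed, PTGS2 and BCL2L1, both lower, where limma called 10.8% of all genes, 6.28% lower. In A549 oncosphere culture 2 of 6 passed, TFRC higher and PTGS2 lower, against 13.2% of all genes, 6.04% higher and 7.2% lower. In H2023 limma called 0 members in either culture, and 0% of all genes. At an unadjusted p under 0.05, 4 members stood out in H2023 normal culture and 1 in H2023 oncosphere culture, where 18.2% and 15.5% of all genes did. The authors' deposited tables call 4, 3, 4 and 1 of the 6 members in the same order, against 22.1%, 20.7%, 10.8% and 5.07% of all genes. With 6 members these counts describe the list, and no test of the list was made. The median limma log2 fold changes of the members were -0.58, 0.06, -0.19 and -0.00, beside medians of -0.03, 0.03, 0.01 and 0.06 over all genes.

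Without overlap between the groups, 1 member was higher and 4 were lower in A549 normal culture, as were 27.2% and 34.6% of all genes. The counts were 1 higher and 2 lower in A549 oncosphere culture (32.7% and 27.8% of all genes) and 2 higher and 3 lower in H2023 normal culture (26.1% and 24.5%). In H2023 oncosphere culture 1 was higher (28.6%) and 0 were lower (18.9%). Groups of 2 libraries thus often separate.

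**Figure D3:**
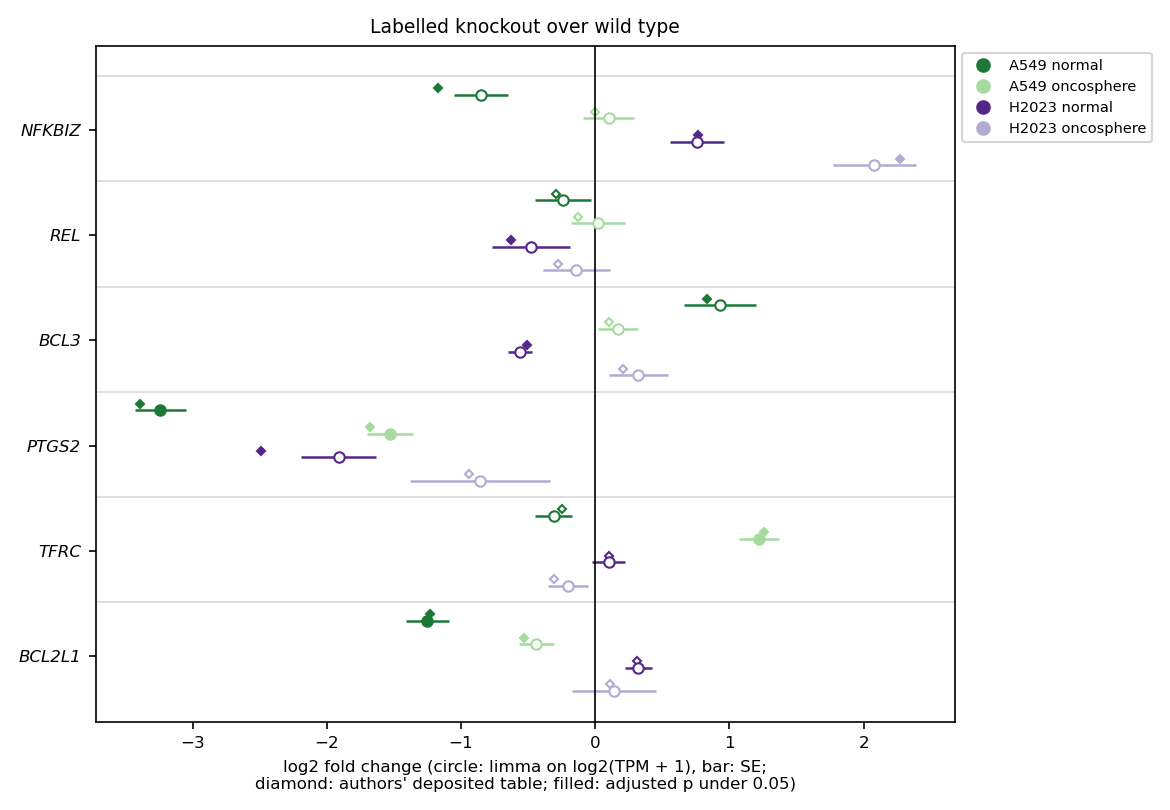
The log2 fold change of labelled knockout over wild type is given on the horizontal axis for each member and comparison, as circles with standard errors from limma on log2(TPM + 1) and as diamonds from the authors' deposited tables, filled where the adjusted p is under 0.05. PTGS2 lies left of 0 in all 4 comparisons, while NFKBIZ runs from -0.85 in A549 normal culture to 2.08 in H2023 oncosphere culture.

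NFKBIZ (ENSG00000144802, + strand of chromosome 3, 101827991 to 101861022 in GRCh38) encodes IkB-zeta, a nuclear cofactor that lets NF-kB activate secondary response genes. In A549 normal culture it had 9.11 and 9.77 TPM in wild type and 4.12 and 5.55 TPM in the labelled knockout. In H2023 normal culture the values were 2.8 and 2.66 against 6.15 and 4.55 TPM, and in H2023 oncosphere culture 4.3 and 7.8 against 24.78 and 31.32 TPM. Each of these pairs of groups was separate, low in the labelled knockout in A549 and high in it in H2023. In A549 oncosphere culture the groups overlapped, at 12.75 and 9.38 against 12.36 and 11.23 TPM.

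None of these NFKBIZ differences passed with limma. The log2 fold change was -0.85 ± 0.20 (SE, limma adjusted p = 0.058) in A549 normal culture. It was 0.76 ± 0.20 (SE, limma adjusted p = 0.212) and 2.08 ± 0.31 (SE, limma adjusted p = 0.223) in H2023 normal and oncosphere culture, and 0.10 (limma adjusted p = 0.778) in A549 oncosphere culture. The H2023 oncosphere means stood at a ratio of 4.64. The authors' deposited tables give -1.17 (adjusted p = 3.82e-05), 0.77 (adjusted p = 0.0394) and 2.27 (adjusted p = 5.13e-08) for the 3 separate pairs, past the threshold in each. The sign of the NFKBIZ difference was thus negative in A549 normal culture and positive in H2023, and the test of that difference is given with the comparison of lines.

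REL (ENSG00000162924, + strand of chromosome 2, 60881521 to 60931610) encodes the NF-kB subunit c-Rel, best known from lymphocytes. It had the lowest mean of the 6, with values of 2.22 to 5.62 TPM. Its values were 2.65 and 3.47 against 2.22 and 2.65 TPM in A549 normal culture, which meet at a shared value, and 2.71 and 2.68 against 3.18 and 2.36 TPM in A549 oncosphere culture, which overlap. In H2023 normal culture the labelled knockout had 4.47 and 2.49 TPM, below 4.59 and 5.62 TPM in wild type but with a wide spread. In H2023 oncosphere culture 3.4 and 4.21 TPM overlapped 2.69 and 4.09 TPM. The limma log2 fold changes lay between -0.48 and 0.02, with adjusted p-values of 0.446 to 0.961. The authors' deposited table for H2023 normal culture gives -0.63 with an adjusted p of 0.0413.

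BCL3 (ENSG00000069399, + strand of chromosome 19, 44747705 to 44760044) encodes a nuclear IkB protein that works with the p50 and p52 NF-kB subunits. BCL3 had 57.37 and 93.47 TPM in wild type of A549 normal culture and 119.09 and 165.19 TPM in the labelled knockout. In H2023 normal culture it ran the other way, from 68.45 and 76.79 to 50.31 and 47.53 TPM. The groups were separate in both, and the log2 fold changes were 0.93 ± 0.27 (SE, limma adjusted p = 0.0888) and -0.56 ± 0.09 (SE, limma adjusted p = 0.149). The authors' deposited tables give 0.83 (adjusted p = 0.00498) and -0.51 (adjusted p = 0.00508), past the threshold in opposite directions. Both oncosphere comparisons overlapped, with 99.56 and 129.73 against 123.23 and 133.68 TPM in A549 and 59.89 and 44.51 against 74.17 and 56.53 TPM in H2023. Within the NF-kB group NFKBIZ and BCL3 thus had opposite signs in each line in normal culture.

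PTGS2 (ENSG00000073756, − strand of chromosome 1, 186671791 to 186680427) encodes cyclooxygenase-2, the inducible enzyme that starts prostaglandin synthesis. It was the member with the largest change. PTGS2 had 79.81 and 115.2 TPM in wild type of A549 normal culture and 9.41 and 9.15 TPM in the labelled knockout, 10.5-fold lower by the means. In A549 oncosphere culture it went from 320.08 and 239.6 to 102.95 and 88.63 TPM, 2.92-fold lower. Both falls passed, with log2 fold changes of -3.24 ± 0.19 (SE, limma adjusted p = 0.00518) and -1.53 ± 0.17 (SE, limma adjusted p = 0.00779).

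PTGS2 was also lower in the labelled knockout of H2023 normal culture. That culture gave 11.99 and 7.55 TPM in wild type and 2.08 and 1.56 TPM in the labelled knockout, groups that were separate and 5.37-fold apart. The log2 fold change there was -1.91 ± 0.28 (SE, limma adjusted p = 0.129), and the authors' deposited table gives -2.49 (adjusted p = 3.00e-16). Oncosphere culture gave 42.37 and 89.33 against 23.73 and 46.87 TPM, which overlapped, with -0.86 ± 0.52 (SE, limma adjusted p = 0.485) and an adjusted p of 0.233 in the authors' deposited table. The sign was negative in all 4 comparisons, and the authors' deposited tables call 3 of them.

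TFRC (ENSG00000072274, − strand of chromosome 3, 196027183 to 196082189) encodes transferrin receptor 1, through which cells take up iron. In A549 oncosphere culture it had 53.36 and 56.86 TPM in wild type and 113.17 and 148.59 TPM in the labelled knockout, a 2.37-fold rise. The log2 fold change was 1.22 ± 0.15 (SE, limma adjusted p = 0.0105), and 1.26 (adjusted p = 1.99e-10) in the authors' deposited table. TFRC was the only member to pass upward with limma in any of the 4 comparisons. In A549 normal culture it had 179.41 and 173.02 against 125.3 and 161.62 TPM, separate but with a log2 fold change of -0.31 (limma adjusted p = 0.21). In H2023 it had 234.2 and 241.13 against 282.17 and 231.51 TPM in normal culture and 165.04 and 200.71 against 148.51 and 169.82 TPM in oncosphere culture, and both overlapped.

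BCL2L1 (ENSG00000171552, − strand of chromosome 20, 31664452 to 31723989) encodes BCL-XL, a guard against apoptosis at the mitochondrion. In A549 normal culture it fell from 200.3 and 185.66 to 93.82 and 68.63 TPM, with a log2 fold change of -1.25 ± 0.16 (SE, limma adjusted p = 0.0169). In A549 oncosphere culture it had 119.46 and 139.56 against 102.9 and 87.11 TPM, separate again, with -0.44 ± 0.13 (SE, limma adjusted p = 0.0929) and an adjusted p of 0.0155 in the authors' deposited table. In H2023 normal culture the labelled knockout was higher, with 100.66 and 114.98 against 128.17 and 141.6 TPM, without passing (limma adjusted p = 0.244). In H2023 oncosphere culture 79.19 and 55.21 TPM overlapped 91.75 and 58.25 TPM. The library kit keeps strand, but the strand setting used in counting is not stated, so reads of BCL2L1 and of its antisense neighbour ABALON, listed at 1.09 to 7.89 TPM, may not have been fully separated.

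The A549 calls of PTGS2, BCL2L1 and TFRC depended on having all 4 libraries. Without any 1 of them, wild type or labelled knockout, PTGS2 kept log2 fold changes of -3.50 to -2.97 in normal culture and -1.73 to -1.32 in oncosphere culture, BCL2L1 kept -1.48 to -1.03 and TFRC 1.03 to 1.42, while their limma adjusted p-values rose to between 0.0577 and 0.183. In A549 normal culture the 6 epithelial markers summed to 9350 and 9170 TPM in wild type and 5010 and 2570 TPM in the labelled knockout. In A549 oncosphere culture the sums overlapped, at 6670 and 7540 against 5660 and 7830 TPM. There limma called 2 of the 6 lower and 0 higher, where it called 7.2% of all genes lower and 6.04% higher. The 2 were EPCAM (log2 fold change -2.33, limma adjusted p = 0.00452) and KRT19 (-3.68, limma adjusted p = 0.00819). The part of the epithelial markers in the changes of PTGS2, BCL2L1 and TFRC was not tested. CD14 and LYZ together had 66.2 and 33.6 TPM in wild type and 34.6 and 29.0 TPM in the labelled knockout of A549 oncosphere culture, which overlapped. LYZ alone had 18.56 and 6.81 against 0.28 and 0.0 TPM (limma adjusted p = 0.0118). CD14 overlapped, at 47.61 and 26.79 against 34.34 and 28.97 TPM (limma adjusted p = 0.719). The part of CD14 and LYZ in the changes of TFRC and PTGS2 was not tested.

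The next question was whether the knockout effect differs between cultures. In A549 it differed for TFRC and PTGS2, 2 of 6 members, where 6.65% of all genes differed (limma interaction over the 8 libraries of the line). The TFRC effect was higher in oncosphere than in normal culture by 1.53 ± 0.22 (SE, limma adjusted p = 0.014) and the PTGS2 effect by 1.71 ± 0.28 (SE, limma adjusted p = 0.0187), which for PTGS2 is a smaller fall. The TFRC call was lost without wild-type replicate 1 of normal culture (adjusted p = 0.0597), and the PTGS2 call without any 1 of the 4 libraries labelled knockout (adjusted p of 0.0501 to 0.0741), by limma. For NFKBIZ and BCL2L1 the differences were 0.95 and 0.81 (limma adjusted p = 0.0831 and 0.0742). A z-test was also computed here from the fold changes and standard errors of the authors' deposited tables. It gave 1.17 for NFKBIZ, past the threshold (z-test adjusted p = 0.0232), and 0.71 for BCL2L1, not past it (z-test adjusted p = 0.0533). In H2023 limma called 0 members and 0% of all genes, with 2 members and 7.1% of all genes at an unadjusted p under 0.05. The same z-test called 0 members and 0.39% of all genes there.

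The same question was asked between lines. In normal culture the effect differed between H2023 and A549 for 3 of 6 members, where 12.1% of all genes differed (limma over all 16 libraries). NFKBIZ and BCL2L1 had the higher effect in H2023, by 1.61 ± 0.35 (SE, limma adjusted p = 0.0118) and 1.58 ± 0.31 (SE, limma adjusted p = 0.00749), and BCL3 the lower one, by -1.49 ± 0.33 (SE, limma adjusted p = 0.014). In oncosphere culture the effect differed for 2 of 6 members, where 16.3% of all genes differed: NFKBIZ by 1.98 ± 0.35 (SE, limma adjusted p = 0.0025) and TFRC by -1.42 ± 0.23 (SE, limma adjusted p = 0.0014). Without single libraries of normal culture the NFKBIZ call was lost once (labelled knockout replicate 1 of H2023, limma adjusted p = 0.0515) and the BCL3 call 4 times (wild-type replicate 1 and labelled knockout replicate 2 of A549, replicate 2 of both groups of H2023, limma adjusted p of 0.0522 to 0.0626). For PTGS2 the differences were 1.33 and 0.66 (limma adjusted p = 0.111 and 0.429), not past the threshold. NFKBIZ was the only member whose effect differed between lines in both cultures.

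**Figure D4:**
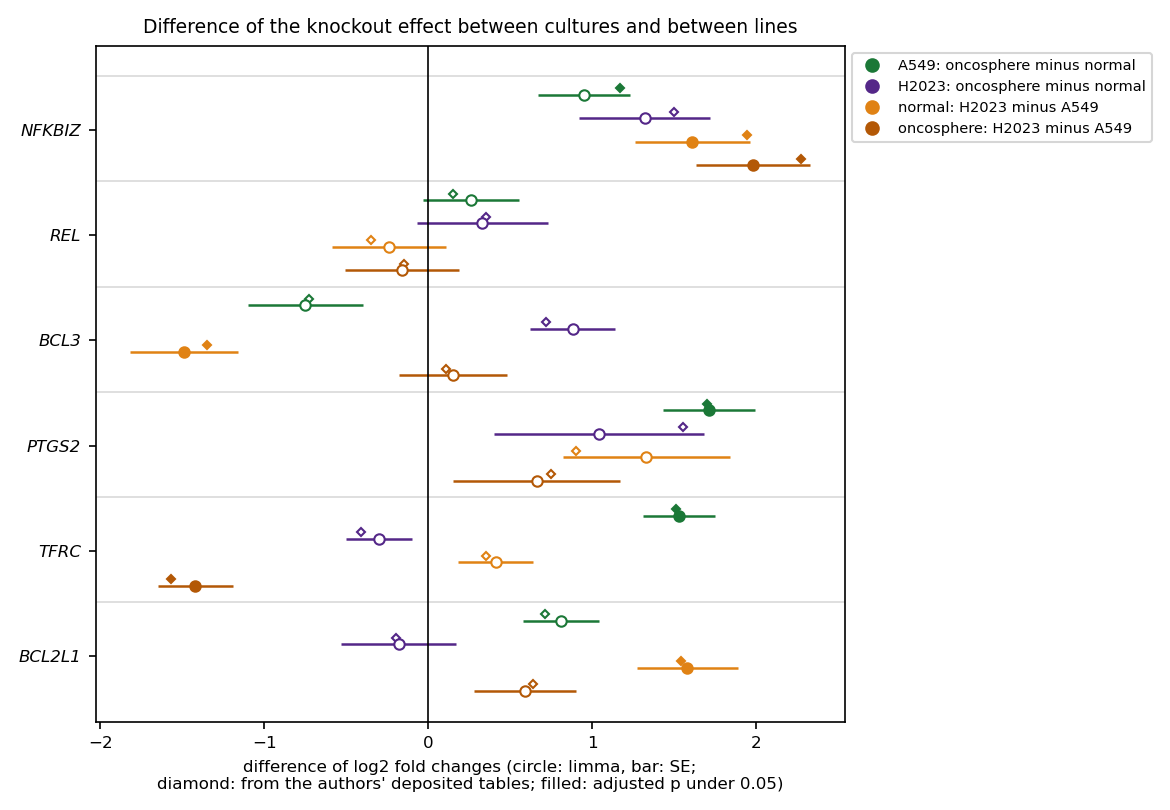
Each circle is the difference of 2 knockout effects on the log2(TPM + 1) scale with its standard error from limma, and each diamond the same difference from the authors' deposited tables, filled where the adjusted p is under 0.05. The NFKBIZ line differences (1.61 and 1.98) lie right of 0, the BCL3 one in normal culture (-1.49) and the TFRC one in oncosphere culture (-1.42) lie left of it, and no circle of REL is filled.

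Culture moved several members within a genotype. PTGS2 was higher in oncosphere culture in all 4 line and genotype pairs, by 2.87-fold and 10.3-fold in A549 wild type and labelled knockout and by 6.74-fold and 19.4-fold in H2023. All 4 passed, with log2 fold changes of 1.52, 3.23, 2.57 and 3.62 (limma adjusted p = 6.56e-04, 1.56e-04, 0.0122 and 0.00289). The PTGS2 call in H2023 wild type was lost without replicate 2 of normal or of oncosphere culture (limma adjusted p = 0.0677 and 0.0501). NFKBIZ rose in both labelled knockouts, by 2.44-fold in A549 and 5.24-fold in H2023 (limma adjusted p = 0.00563 and 0.00306). In wild type its ratios were 1.17 and 2.22, and neither passed (limma adjusted p = 0.467 and 0.0721).

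TFRC fell with oncosphere culture in A549 wild type, 3.2-fold by the means (log2 fold change -1.66 ± 0.16 SE, limma adjusted p = 1.78e-04), and in the H2023 labelled knockout, 1.61-fold (limma adjusted p = 0.0158). In the A549 labelled knockout it had 125.3 and 161.62 TPM in normal and 113.17 and 148.59 TPM in oncosphere culture, which overlapped. BCL2L1 fell in A549 wild type and in the H2023 labelled knockout, with log2 fold changes of -0.58 and -0.87 (limma adjusted p = 0.0231 and 0.0446); the former call was lost without either normal-culture library or oncosphere replicate 1 (adjusted p of 0.0593 to 0.124), and the latter without either normal-culture library or oncosphere replicate 2 (adjusted p of 0.136 to 0.175). The TFRC call in the H2023 labelled knockout was lost without normal-culture replicate 1 or oncosphere replicate 1 (limma adjusted p = 0.0937 and 0.0773). The share of mitochondrial TPM was higher in oncosphere culture in both lines. With mitochondrially encoded genes left out of TPM, these H2023 log2 fold changes were -0.46 for TFRC and -0.65 for BCL2L1, no longer past the threshold (limma adjusted p = 0.0651 and 0.113), and the other 8 culture calls of members held. The BCL2L1 call in the H2023 labelled knockout was also lost with centred library medians (-0.72, limma adjusted p = 0.0623) and with quantile normalization (-0.66, limma adjusted p = 0.109), and the one in A549 wild type in the fit of 16 libraries (limma adjusted p = 0.0541). REL and BCL3 passed in none of the 4 culture comparisons. The members called were 3, 2, 1 and 4 of 6 in A549 wild type, A549 labelled knockout, H2023 wild type and H2023 labelled knockout, where limma called 40.6%, 20.8%, 21.4% and 26.9% of all genes. The median of all genes shifted by -0.18 and -0.12 in the H2023 wild-type and labelled knockout comparisons.

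Wild-type levels also differed between the lines. In normal culture PTGS2, NFKBIZ and BCL2L1 were lower in H2023 than in A549, with log2 fold changes of -3.20, -1.48 and -0.84 (limma adjusted p = 3.13e-05, 4.92e-04 and 0.00937), and TFRC was higher by 0.43 (limma adjusted p = 0.0475). In oncosphere culture PTGS2, NFKBIZ, BCL3 and BCL2L1 were lower by -2.15, -0.81, -1.12 and -0.95 (limma adjusted p = 4.29e-04, 0.0172, 0.00203 and 0.00372), and TFRC was higher by 1.71 (limma adjusted p = 6.15e-06). These are 4 and 5 of 6 members, where limma called 41.5% and 47.8% of all genes. The TFRC call in normal culture was lost without any 1 of the 4 wild-type libraries (limma adjusted p of 0.113 to 0.156), and on centring library medians its log2 fold change was 0.21. The BCL2L1 call there was lost without replicate 1 of either line (limma adjusted p = 0.056 in A549 and 0.0624 in H2023), and the NFKBIZ call in oncosphere culture also without replicate 1 of either line (limma adjusted p = 0.134 and 0.179). In the order of group means, few neighbouring groups were separate: 3 of 7 pairs for NFKBIZ, TFRC and PTGS2, 2 of 7 for REL and BCL2L1, and 1 of 7 for BCL3.

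Among the partners of NFKBIZ, LCN2 (lipocalin-2, an iron-binding secreted protein that needs IkB-zeta) had the widest swing. It fell from 77.67 and 142.9 to 0.89 and 0.66 TPM in A549 normal culture and from 1135.91 and 846.82 to 160.38 and 52.37 TPM in A549 oncosphere culture (limma adjusted p = 0.00437 and 0.0168). In H2023 oncosphere culture it had wild-type levels of 183.25 and 239.91 against 1281.08 and 2849.05 TPM (log2 fold change 3.18, limma adjusted p = 0.221; adjusted p = 2.50e-15 in the authors' deposited table). In H2023 normal culture the LCN2 groups overlapped, at 13.45 and 14.4 against 19.16 and 10.87 TPM (log2 fold change 0.05, limma adjusted p = 0.949). In A549 oncosphere culture, where LCN2 fell, the NFKBIZ groups overlapped (log2 fold change 0.10). CCL20, a chemokine that also needs IkB-zeta, fell from 52.15 and 74.23 to 14.31 and 6.89 TPM in A549 normal culture (limma adjusted p = 0.019). Of 7 such genes 4 were measured, and the authors' deposited tables call 2 lower in A549 normal culture, 1 lower in A549 oncosphere culture, none in H2023 normal culture, where only 1 of the 4 was tested, and 1 of 3 tested higher in H2023 oncosphere culture. The tables call 22.1%, 20.7%, 10.8% and 5.07% of all genes in either direction, in the same order.

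Of 12 NF-kB subunits, inhibitors and kinases, all measured, the authors' deposited tables call 5 lower in A549 normal culture and 1 lower in A549 oncosphere culture. They call 1 higher in H2023 normal culture and none in H2023 oncosphere culture. In either direction they call 22.1%, 20.7%, 10.8% and 5.07% of all genes in these comparisons. NFKB1, which encodes p50, had 24.7 and 17.96 against 13.37 and 10.97 TPM in A549 normal culture (limma adjusted p = 0.0727), and NFKB2, which encodes p52, had 51.64 and 49.48 against 34.13 and 22.34 TPM (limma adjusted p = 0.061). NFKBIE, an IkB inhibitor, had 9.26 and 9.26 against 16.61 and 16.88 TPM in H2023 normal culture (adjusted p = 0.00597 in the authors' deposited table). The median limma log2 fold changes of the list were -0.38, -0.16, 0.13 and 0.35, beside the medians of all genes given above.

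Of 14 other reported Regnase-1 targets outside chemokines 8 were measured, and the rest were not analysed here. The authors' deposited tables call 1 higher and 2 lower in A549 normal culture, 1 higher and 3 lower in A549 oncosphere culture, 1 in each direction in H2023 normal culture and none in H2023 oncosphere culture. The shares of all genes called in either direction are again 22.1%, 20.7%, 10.8% and 5.07%, and 7, 8, 5 and 6 of the 8 targets were tested. BIRC3, an inhibitor of apoptosis, fell from 46.84 and 41.73 to 10.55 and 5.85 TPM in A549 normal culture (limma adjusted p = 0.0132). BIRC3 had 35.09 and 29.16 against 48.36 and 43.99 TPM in H2023 normal culture (log2 fold change 0.45, adjusted p = 0.0237 in the authors' deposited table; limma adjusted p = 0.194). BCL2A1, a BCL2 relative, fell in A549 normal culture from 10.33 and 7.51 to 0.76 and 0.1 TPM (limma adjusted p = 0.0123). EGLN3, an oxygen-sensing hydroxylase, rose from 7.06 and 7.55 to 13.45 and 17.44 TPM there and fell from 26.15 and 34.78 to 7.38 and 9.61 TPM in A549 oncosphere culture (limma adjusted p = 0.0347 and 0.00938).

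In the prostaglandin pathway around PTGS2, PLA2G4A, the phospholipase that releases the arachidonic acid that PTGS2 uses, was called lower by the authors' deposited tables in all 4 comparisons. It had 21.71 and 33.69 against 8.66 and 11.29 TPM in A549 normal culture and 165.19 and 171.16 against 63.37 and 77.34 TPM in A549 oncosphere culture (limma adjusted p = 0.0333 and 0.00621). In H2023 it had 21.5 and 14.5 against 4.81 and 5.12 TPM in normal culture and 55.07 and 57.02 against 16.07 and 24.37 TPM in oncosphere culture (adjusted p = 3.41e-13 and 6.00e-07 in the authors' deposited tables, 0.129 and 0.227 with limma). The groups were separate each time. PTGES, which makes prostaglandin E2 from the PTGS2 product, rose from 118.52 and 145.35 to 332.88 and 254.91 TPM in A549 oncosphere culture (limma adjusted p = 0.0167). PTGES had 249.98 and 274.62 against 109.23 and 132.37 TPM in H2023 normal culture (log2 fold change -1.12, adjusted p = 7.01e-12 in the authors' deposited table; limma adjusted p = 0.119). HPGD, which breaks prostaglandins down, had 33.41 and 11.27 against 96.65 and 97.32 TPM in H2023 normal culture (adjusted p = 0.0383 in the authors' deposited table, 0.19 with limma). In A549 normal culture HPGD ran the other way, with 185.23 and 103.19 against 61.04 and 65.47 TPM (adjusted p = 9.95e-06 in the authors' deposited table, 0.0622 with limma). Of 10 measured genes of 15 listed, the authors' deposited tables call 1 higher and 5 lower in A549 normal and 1 higher and 3 lower in A549 oncosphere culture. They call 1 higher and 2 lower in H2023 normal culture, and none higher and 1 lower in H2023 oncosphere culture. Of all genes, 22.1%, 20.7%, 10.8% and 5.07% are called in either direction, in the same order.

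**Figure D5:**
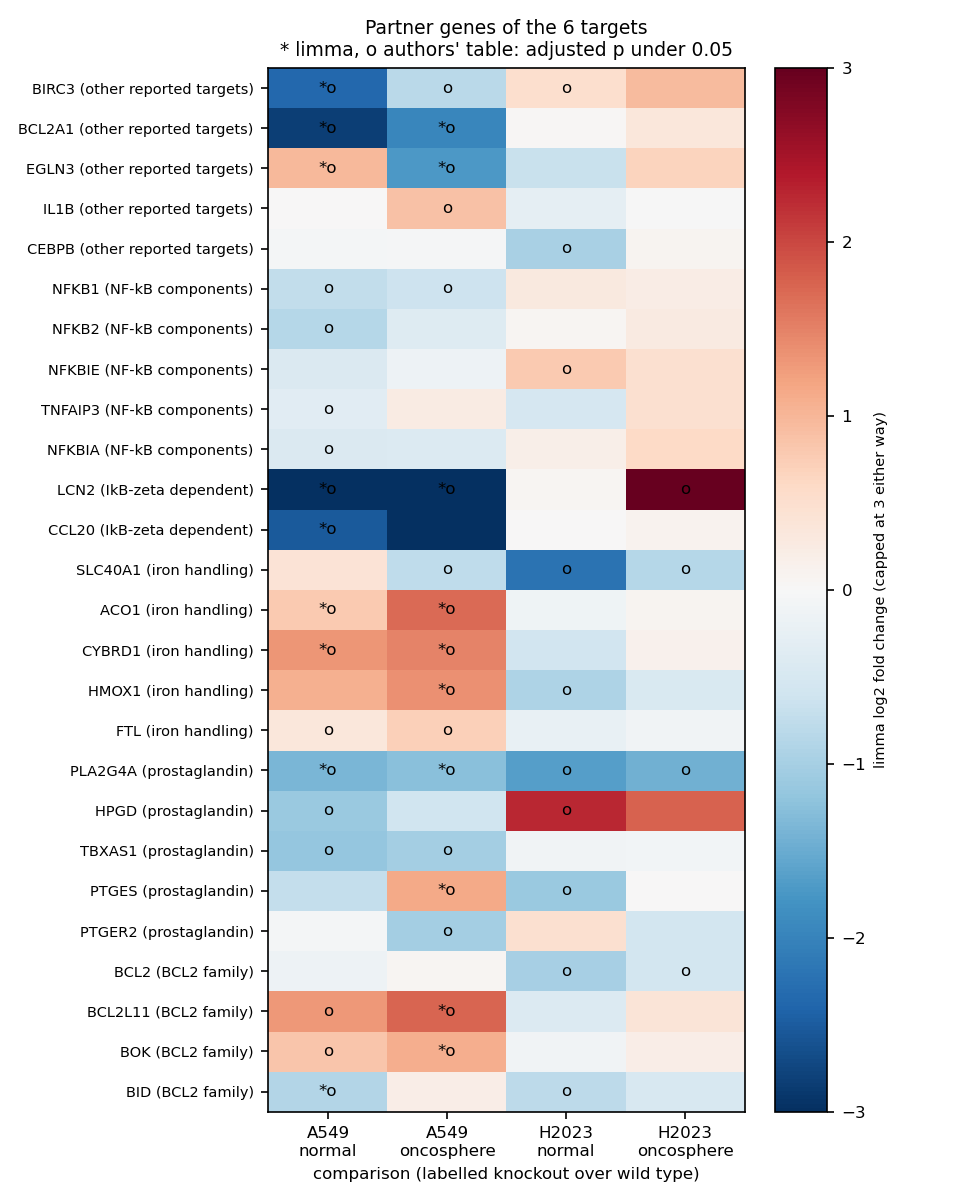
Each cell is the limma log2 fold change of labelled knockout over wild type for a partner gene (rows, with their list) in a comparison (columns), red for higher and blue for lower with the colour capped at 3; an asterisk marks limma and a small o the authors' deposited table at an adjusted p under 0.05. PLA2G4A is the only row marked in all 4 columns, and LCN2 is dark blue in both A549 columns and dark red in H2023 oncosphere culture.

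Among 12 iron-handling genes around TFRC the authors' deposited tables call 5 higher and 1 lower in each A549 culture. They call 2 lower in H2023 normal culture and 1 lower in H2023 oncosphere culture. Of all genes, they call in either direction 22.1% and 20.7% in A549 and 10.8% and 5.07% in H2023. ACO1, which encodes iron regulatory protein 1, rose from 38.09 and 50.35 to 153.02 and 138.32 TPM in A549 oncosphere culture and from 64.96 and 50.62 to 97.47 and 102.06 TPM in A549 normal culture (limma adjusted p = 0.00522 and 0.032). CYBRD1, a ferric reductase, rose from 12.9 and 14.0 to 39.16 and 31.37 TPM in A549 normal culture (limma adjusted p = 0.0133). SLC40A1, the iron exporter ferroportin, went from 41.56 and 55.67 to 8.91 and 10.21 TPM in H2023 normal culture (log2 fold change -2.32, adjusted p = 3.66e-33 in the authors' deposited table; limma adjusted p = 0.11).

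In the BCL2 family, of which BCL2L1 is a member, 15 of 16 other genes were measured. The authors' deposited tables call 3 higher and 2 lower in A549 normal culture and 4 higher and 2 lower in A549 oncosphere culture. The shares of all genes called in either direction there are 22.1% and 20.7%. The tables call 2 lower in H2023 normal culture and 1 lower in H2023 oncosphere culture, beside 10.8% and 5.07% in either direction, with 13 of the 15 tested there. The limma counts were 2 lower in A549 normal culture, 4 higher and 1 lower in A549 oncosphere culture, and 0 in H2023. Limma called 10.8% and 13.2% of all genes in either direction in A549 normal and oncosphere culture and 0% in both H2023 cultures. BCL2L11, which encodes the pro-apoptotic BIM, rose from 7.96 and 5.15 to 23.24 and 24.44 TPM in A549 oncosphere culture (limma adjusted p = 0.0105), and BOK from 6.06 and 7.05 to 16.01 and 14.45 TPM (limma adjusted p = 0.0164). BID, another pro-apoptotic member, fell from 72.22 and 77.61 to 44.61 and 35.94 TPM in A549 normal culture (limma adjusted p = 0.0222). BCL2 itself had 2.22 and 2.6 against 0.56 and 0.87 TPM in H2023 normal culture (adjusted p = 1.26e-09 in the authors' deposited table, 0.144 with limma).

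The genes whose levels over the 16 libraries ran most like each member were found by Pearson r of log2(TPM + 1) among 14822 genes. These r values describe libraries that share lines, cultures and clones. NFKBIZ ran most like SAA2 (r = 0.959), SAA1 (r = 0.905), a near-identical relative of SAA2 with which reads may be split, and TNIP1 (r = 0.904). SAA2 is an acute phase gene, and it had 0.75 and 4.89 TPM in wild type and 102.04 and 99.72 TPM in the labelled knockout of H2023 oncosphere culture. PTGS2 ran most like CXCL8 (r = 0.969), which encodes interleukin-8 and went from 109.33 and 123.55 to 9.32 and 5.1 TPM in A549 normal culture, then MUC5B (r = 0.955) and PDGFRL (r = 0.935). TFRC ran most like GTF2E1 (r = 0.960), CAMSAP1 (r = 0.955) and ZNF567 (r = 0.942), and BCL3 most like TNS1 (r = 0.932), HDAC11 (r = 0.924) and PGM2L1 (r = 0.922). For REL the highest values were lower, with SIKE1 (r = 0.875), MKRN1 (r = 0.870) and KIF1B (r = 0.841). BCL2L1 ran most like its own antisense neighbour ABALON (r = 0.946), then TRAP1 (r = 0.904) and DBNL (r = 0.898).

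Promoter windows of 300 bases from RefSeq (GRCh38.p14, 250 before to 50 after the start) were available for all 6 members, in 8 windows. The NF-kB consensus motif, searched on both strands with overlapping matches counted, was found in windows of NFKBIZ, REL and BCL3, the members of the NF-kB system. The 2 NFKBIZ matches read GGGAATTTCC, 223 bases before one start, and GGGGTTTCCC, 239 bases before the other. The REL match, 47 bases before the start, reads GGGAAATTCC and overlaps GGAAATTCCC, and the BCL3 match reads GGGAAGTCCC. The motif occurs in 11.3% of 35116 windows, and no match was found in those of TFRC, PTGS2 and BCL2L1. A missing match says only that the exact pattern does not stand in the window, and sites that depart from it were not searched.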

How the data were processed

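The members and gene lists were chosen with earlier results of these data known. The authors deposited 4 tables, 1 per line and culture, made with HISAT2 and StringTie on GRCh38, per the submitters' processing notes; the annotation and the strand used in counting are not given in the sources used here. Poly(A) libraries of a stranded kit were made from total RNA, per the labels' protocols. Per the file headers, the authors give TPM for each library, a mean normalized count signal, a log2 fold change with its standard error, a test score and p-values with adjusted p-values. The score has the opposite sign to the fold change in all 18361 rows, so directions came from the fold change. 1 sequence match in a 3′ UTR is not reported here. Repeated identifiers were kept once, which left 18227 genes.

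The main test was limma 3.58.1 (R 4.3.3, eBayes with trend) on log2(TPM + 1), all genes fitted, Benjamini-Hochberg adjusted, two-sided, threshold 0.05. It used the 4 libraries of a comparison, the 8 of a line for cultures and all 16 for lines. The fit was also run on simulated data of independent libraries, which does not show how it performs on these data. TPM keeps no depth, so raw depth is unknown and no count test was run. Named were all 6 members, ZC3H12A, the 3 genes of highest r with each member, and up to 5 genes per list called in most of the authors' deposited tables. Alternatives were the pseudocount (0.1), a mean of at least 1 TPM, scaling, larger fits, a replicate block, leaving out each library, and the authors' deposited tables.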

Additional observations from a re-analysis of the deposited data

Results flagged for a closer look

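The knockout effects listed here number 7. They differed between cultures or lines by a test of the difference itself, limma on log2(TPM + 1). Between the A549 cultures (oncosphere minus normal) these were TFRC with 1.53 (adjusted p = 0.014) and PTGS2 with 1.71 (adjusted p = 0.0187). TFRC was higher in the labelled knockout in oncosphere culture alone, while PTGS2 was lower in both cultures and less so in oncosphere culture. Between the lines in normal culture (H2023 minus A549) they were NFKBIZ with 1.61 (adjusted p = 0.0118), BCL3 with -1.49 (adjusted p = 0.014) and BCL2L1 with 1.58 (adjusted p = 0.00749). For these 3 members the effect had opposite signs in A549 and H2023. Between the lines in oncosphere culture they were NFKBIZ with 1.98 (adjusted p = 0.0025) and TFRC with -1.42 (adjusted p = 0.0014). Each line is represented by 1 clone labelled knockout, so line and clone cannot be told apart.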

How the results depend on the processing

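Of 1068 member fold changes recomputed under the alternatives, 958 kept their direction and their side of the threshold, 52 fell below it, 29 rose past it and 29 changed sign, and none of the last had been called. Members called in A549 normal culture numbered 2, but 4 with genes of at least 1 TPM, in the fits of 8 and of 16 libraries, and in the authors' deposited table. In H2023 normal culture the 0 became 2 with genes of at least 1 TPM, 1 with centred medians, 1 in the fit of 16 libraries and 4 in the authors' deposited table. In H2023 oncosphere culture the 0 became 1 in the fits of 8 and 16 libraries and in the authors' deposited table. The A549 culture difference gave 1 in the fit of 16 libraries. Culture in H2023 wild type gave 2 with genes of at least 1 TPM, 2 with centred medians and 3 in the fit of 16 libraries, and in the H2023 labelled knockout 2 without mitochondrially encoded genes. Outside the authors' deposited tables, the share of all genes called under these alternatives is not given here. The counts of members thus cannot be set beside it, and causes of these shifts were not tested.

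Leaving out each library gave ranges of 0 to 0 members in both A549 knockout comparisons, 1 to 2 for the A549 culture difference, 0 to 2 for culture in H2023 wild type, 2 to 3 in the H2023 labelled knockout, and 2 to 3 for wild-type lines in normal culture. Leaving out 1 of 4 libraries leaves a group with 1, which is assumed to vary like the other.

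Sign changes were confined to fold changes that had not been called. For REL they were -0.01 without mitochondrial genes and -0.13 in the authors' deposited table (A549 oncosphere culture), and 0.14 with centred medians, 0.02 with quantile normalization and 0.17 without mitochondrial genes (culture in the H2023 labelled knockout). With single libraries left out, knockout effects ranged in A549 oncosphere culture from -0.11 to 0.30 for NFKBIZ, -0.14 to 0.18 for REL and -0.02 to 0.36 for BCL3. They ranged from -0.04 to 0.25 for TFRC in H2023 normal culture and, in H2023 oncosphere culture, from -0.38 to 0.09 for REL and -0.18 to 0.47 for BCL2L1. The H2023 culture difference of BCL2L1 ranged from -0.50 to 0.14. Line differences ranged from -0.57 to 0.08 for REL in normal culture, and from -0.40 to 0.07 for REL and -0.06 to 0.36 for BCL3 in oncosphere culture. Culture effects ranged in A549 wild type from -0.01 to 0.40 for NFKBIZ and -0.27 to 0.02 for REL, in the A549 labelled knockout from -0.33 to 0.06 for TFRC, -0.03 to 0.29 for REL and -0.36 to 0.11 for BCL3, and in the H2023 labelled knockout from -0.34 to 0.31 for REL. Wild-type lines in normal culture ranged from -0.36 to 0.33 for BCL3.

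The labels give the replicates numbers only. Same-numbered libraries deviated together across genes with r of 0.08, 0.12, 0.04 and 0.48 in A549 normal, A549 oncosphere, H2023 normal and H2023 oncosphere culture. With the replicate block 82 of 84 member results kept their call and 2 rose past the threshold, BCL3 in A549 normal culture (0.93, adjusted p = 0.0146) and with culture in A549 wild type (0.63, adjusted p = 0.00989). The block left 2 members called in A549 oncosphere culture and 0 in each H2023 knockout comparison. TPM keeps no depth, so what depth limits could not be assessed.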
